A study of Mus musculus with 6 samples.

Results

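The glucocorticoid-responsive genes described here are the receptor gene Nr3c1 and 7 of its early targets, Fkbp5, Tsc22d3, Sgk1, Zbtb16, Klf9, Errfi1 and Ddit4. They were listed by name for a check on steroid carried by plasma, and all 8 were found by symbol among the 27098 genes of the deposited table. Whole ovaries of newborn mice, 3 days old, had been kept in DMEM/F12 medium with antibiotics. For 2 h they then received either the medium alone (3 control libraries) or the medium with 2% platelet-rich plasma, PRP (3 PRP libraries). PRP is blood plasma enriched in platelets, and the series text describes it as human and activated with thrombin. The labels give no strain, no transgene and no thrombin-only or platelet-free plasma control, and they leave unsaid whether the 3 libraries of a group come from different animals or cultures, so the p-values describe spread that may be technical.

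Glucocorticoids are adrenal steroids that circulate in plasma, mostly bound to carrier proteins. The steroid enters the cell and binds the glucocorticoid receptor, a transcription factor held ready in the cytoplasm by HSP90 and its partner proteins. The receptor then moves to the nucleus, binds a palindromic DNA element as a dimer and changes the transcription of its early targets within the first hours. Among these, Fkbp5 encodes an HSP90 partner that lowers the receptor's own affinity for hormone, and Tsc22d3 encodes GILZ, a leucine zipper protein that restrains inflammatory transcription factors. None of the libraries analysed here was given a glucocorticoid by itself, so how strongly ovaries of this age can respond was not measured. Whether the PRP carried active steroid was not measured either.

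The DNA element was sought in the promoters of these genes. RefSeq promoter windows (GRCm38.p6, 250 bases before a start site) were at hand for 6 of the 8 genes, and Nr3c1 and Zbtb16 had none. The complete element, which is the arm AGAACA followed by 3 bases of any kind and the reverse arm TGTTCT, reads the same on both strands. It was found in 1 of the 14 windows of these genes and in 3 of 32851 windows of all genes (0.00913%). That window lies before a start site of Sgk1, with the element at bases -189 to -175 from the start site. The arm AGAACA alone, read on both strands and contained in the complete element, was found in 16.1% of all windows and in 4 of the 14, of which 3 belong to Sgk1 and 1 to Tsc22d3. Printed are the Sgk1 window with the complete element (chr10:21993640-21993889, plus strand), the part of the Tsc22d3 window with a single arm that lies outside annotated exons (chrX:140600660-140600772, minus strand), and, for contrast, the windows of Fkbp5 (chr17:28486150-28486399, minus strand) and Ddit4 (chr10:59951835-59952020, minus strand, again the part outside exons), which hold no match. Capitals mark the complete element and single arms.
Sgk1: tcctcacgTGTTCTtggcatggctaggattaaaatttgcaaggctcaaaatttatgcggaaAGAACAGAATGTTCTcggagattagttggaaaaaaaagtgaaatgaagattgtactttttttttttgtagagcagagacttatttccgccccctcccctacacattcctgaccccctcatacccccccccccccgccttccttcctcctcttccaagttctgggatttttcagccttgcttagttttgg
Tsc22d3: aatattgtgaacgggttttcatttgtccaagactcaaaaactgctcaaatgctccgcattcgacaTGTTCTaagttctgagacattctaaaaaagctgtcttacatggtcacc
Fkbp5: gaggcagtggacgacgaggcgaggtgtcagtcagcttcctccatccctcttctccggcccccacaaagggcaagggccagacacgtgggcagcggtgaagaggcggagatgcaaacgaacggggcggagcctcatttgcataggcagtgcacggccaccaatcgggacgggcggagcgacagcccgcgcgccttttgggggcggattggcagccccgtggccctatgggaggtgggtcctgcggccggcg
Ddit4: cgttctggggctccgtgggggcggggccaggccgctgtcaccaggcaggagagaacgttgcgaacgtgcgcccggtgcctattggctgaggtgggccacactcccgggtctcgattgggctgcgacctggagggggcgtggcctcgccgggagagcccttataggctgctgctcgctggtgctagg
A match is a description of letters and not a bound site, and many elements used by this receptor lie far from promoters, outside these windows. The counts are per gene, so they do not tell which of the 6 Sgk1 start sites in the RefSeq table was used.

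No change with PRP was called in any of the 8 genes. In the unpaired comparison, 0 of the 8 passed an adjusted p of 0.05 in edgeR's quasi-likelihood test, and each had an adjusted p of 1. Over all 17475 genes tested the share called was also 0%, and 3.19% (557 genes) had an unadjusted p under 0.05, against 0 of the 8 genes here. DESeq2 and limma-voom called 0 of the 8 as well, and 0 of all genes, with 551 and 564 genes at that unadjusted level. In log2 fold change, PRP minus control, 6 of the 8 lay below 0 and 2 above, with a median of -0.05 beside 0.00 for all genes tested. The control and PRP libraries overlapped in all 8 genes, whereas 9.21% of all genes tested had groups that did not overlap.

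Library totals were 35568000 to 36568367 counts, so 7 of the 8 genes rest on 717 to 13511 counts per library and only Zbtb16 on fewer (39 to 68). Libraries that carry the same number in both groups deviated together, and a second fit therefore took the number as a block. With it 0.12% of all genes passed (21 genes) and 0 of the 8. The marker genes of ovary were present in every library, given here as summed CPM (counts scaled to a common library size). The 8 oocyte genes summed to 1943, 1375 and 1647 in control and 2185, 1496 and 1907 in PRP. The 6 stromal genes summed to 5709, 5319 and 6530 in control and 6718, 5823 and 6782 in PRP. Both sums were higher in PRP in each number, as were 16.8% of all genes tested. In control 1, Zp2 and Zp3 gave 847.3 and 417.1 CPM of the oocyte sum. Col1a1 and Col3a1 gave 1768 and 2888 CPM of the stromal sum there. Dazl, Oosp1 and Pdgfra lay below 0 in log2 fold change, and the other genes of both lists above 0. The 6 pregranulosa genes summed to 1226, 1211 and 1192 in control and 1102, 1257 and 1239 in PRP. That sum was lower in PRP in number 1 only. Zp2 and Zp3 passed in the blocked fit (edgeR adjusted p = 0.0331 and 0.0411, named after their values were seen), and the other oocyte genes did not. The part of cell composition was not tested. Control 3 stood apart by its red blood cell genes, whose 6 markers summed to 1335 CPM there and to 108.2 to 225.0 CPM elsewhere. Their part in the results was not tested, and the unpaired log2 fold change without control 3 is given for each of the 8 genes. In whole tissue, fewer cells of a type and less RNA per cell cannot be told apart.

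The receptor gene Nr3c1 (Entrez 14815, chromosome 18, 39410545 to 39519421, minus strand, GRCm38) stood at 88.2, 81.5 and 100.4 CPM in controls 1 to 3 and at 83.9, 78.1 and 98.1 CPM in PRP 1 to 3. Number 3 was highest and number 2 lowest in both groups, and each PRP library lay slightly below the control of the same number, by 0.07, 0.06 and 0.03 on the log2 scale; 16.3% of all genes tested were lower in all 3 numbers. Its log2 fold change was -0.05 ± 0.10 (SE, n = 3 per group; 95% interval -0.29 to 0.18). Without control 3 the value was 0.03, with an edgeR adjusted p of 0.997. The replicate number held 95.3% of the variance of Nr3c1 over the 6 libraries, where the median of all genes tested was 55.7%, and 3.25% of genes had a larger share.

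Fkbp5 (Entrez 14229, chromosome 17, 28398753 to 28486149, minus strand), among the most widely used readouts of receptor activity, was the steadiest of the 8. It stood at 217.4, 202.3 and 207.2 CPM in control and at 204.1, 208.0 and 203.2 CPM in PRP, so that the 3 PRP libraries lay within the range of the controls. Its log2 fold change was -0.03 ± 0.06 (SE; 95% interval -0.15 to 0.10), which corresponds to between 0.899-fold and 1.07-fold in these libraries. How far Fkbp5 rises under a glucocorticoid in these ovaries was not tested. Without control 3 it was -0.03. The 6 libraries spanned 0.10 in log2 CPM, a narrower range than in all but 1.63% of the genes tested and all but 5.92% of the 2803 genes with a mean of at least 100 CPM. Unlike the receptor gene, Fkbp5 had only 26.6% of its variance held by the replicate number.

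Tsc22d3 (Entrez 14605, chromosome X, 140539528 to 140600522, minus strand) had levels of 28.6, 32.6 and 26.9 CPM in control and 25.3, 32.7 and 27.6 CPM in PRP. Both libraries numbered 2 were the highest, PRP 1 was the lowest, and the groups overlapped. Its log2 fold change of -0.04 ± 0.12 (SE) had a 95% interval of -0.32 to 0.23, that is 0.80-fold to 1.18-fold. The value was -0.10 without control 3, -0.15 without PRP 2 and 0.04 without control 2. Between libraries of the same number the differences were -0.18, 0.00 and 0.04. Of its variance 85.7% followed the number and 2.89% the treatment.

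**Figure D1:**
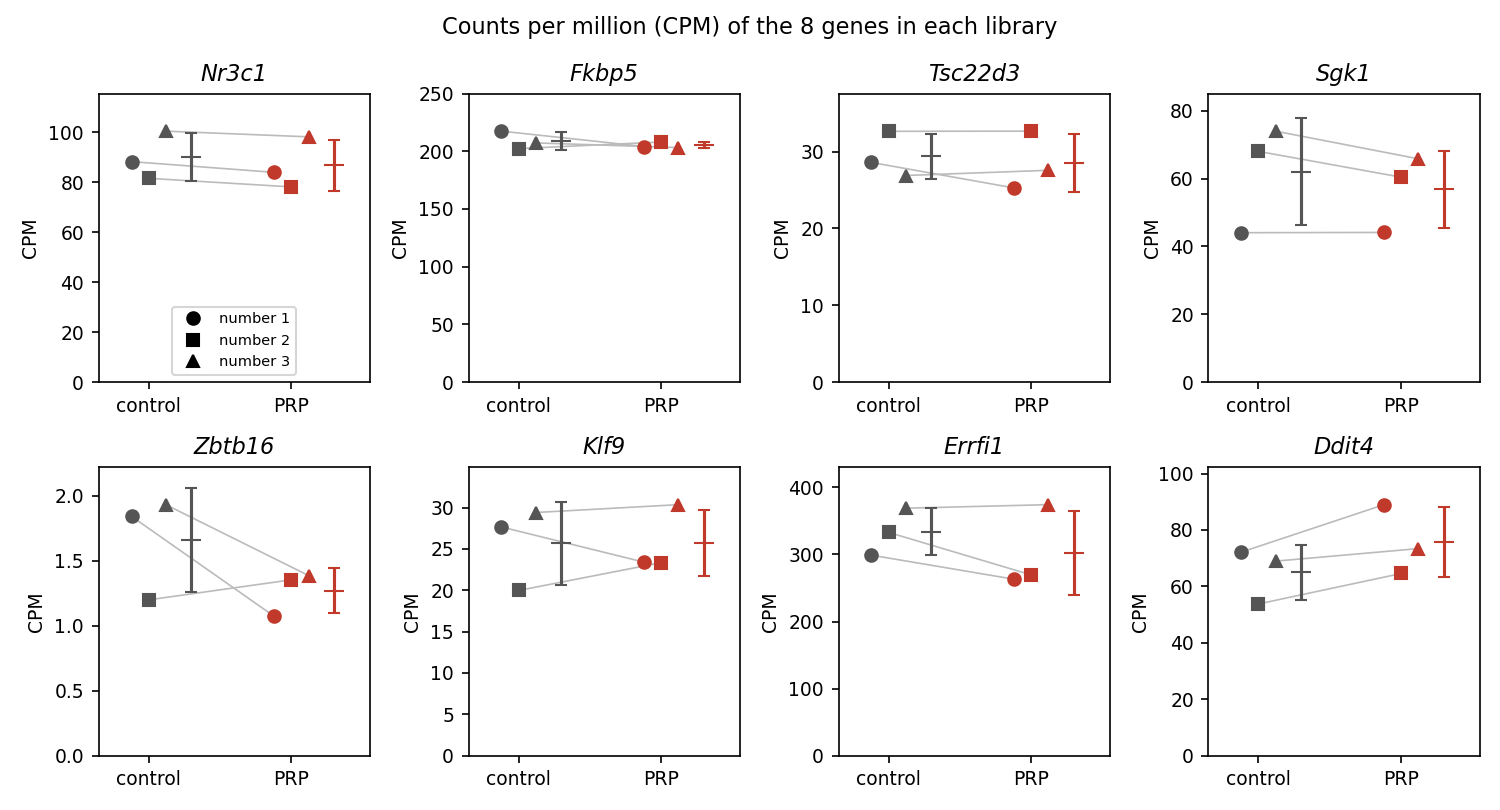
Level of each of the 8 genes in CPM (vertical axes, linear and starting at 0) in the 3 control (grey) and 3 PRP (red) libraries; grey lines join libraries of the same number, and bars beside the points are the mean and SD of a group. The groups overlap in every panel, Fkbp5 stays between 202.3 and 217.4 CPM, and Ddit4 is the gene in which all 3 lines slope upward.

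Sgk1 (Entrez 20393, chromosome 10, 21882184 to 21999903, plus strand) encodes a kinase that regulates ion transport and is related to AKT. It stood at 44.1, 68.0 and 74.0 CPM in control and at 44.1, 60.4 and 65.8 CPM in PRP. Both libraries numbered 1 were low, and the other 4 lay together well above them. The difference was -0.13 ± 0.23 in log2 (SE; 95% interval -0.67 to 0.41), and with the block -0.11 ± 0.06 (interval -0.25 to 0.02). The replicate number held 94.5% of the variance. Without control 3 the unpaired value was 0.02, and without PRP 1 it was 0.03, with edgeR adjusted p-values of 0.998 and 1. A second gene of the table, Gm46215, lies within the span of Sgk1, with 0 to 2 counts per library.

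Klf9 (Entrez 16601, chromosome 19, 23141226 to 23168129, plus strand), a Krüppel-like repressor that many tissues induce under glucocorticoid, had levels of 27.7, 19.98 and 29.4 CPM in control and 23.4, 23.4 and 30.4 CPM in PRP. The means were 25.7 ± 5.0 and 25.7 ± 4.0 CPM (SD, n = 3). Its log2 fold change was 0.00 ± 0.17 (SE; 95% interval -0.37 to 0.38), and the differences by number pointed both ways, at -0.24, 0.22 and 0.04. The value moved to 0.11 without control 3, to -0.15 without control 2 and to -0.14 without PRP 3, and none of the 3 passed (edgeR adjusted p = 0.989, 0.999 and 1).

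Zbtb16 (Entrez 235320, chromosome 9, 48651797 to 48836225, minus strand) encodes PLZF, a zinc finger transcription factor. With 66, 43 and 68 counts in control and 39, 49 and 50 in PRP, it was by far the least abundant of the 8, at 1.84, 1.20 and 1.93 CPM and 1.07, 1.35 and 1.38 CPM. Controls 1 and 3 were the highest, and control 2 lay within the PRP range. The log2 fold change of -0.38 ± 0.34 (SE) had a 95% interval of -1.14 to 0.38, the widest of the 8. Without control 3 it was -0.26.

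Errfi1 (Entrez 74155, chromosome 4, 150853796 to 150868889, plus strand) encodes MIG6, a feedback inhibitor that binds the EGF receptor, and it is induced by growth factors as well as by glucocorticoid. It was the most abundant of the 8, at 298.9, 332.9 and 368.9 CPM in control and 263.0, 269.4 and 374.2 CPM in PRP. PRP 1 and PRP 2 lay below all controls, and PRP 3 was the highest of the 6 libraries. Its log2 fold change was -0.14 ± 0.15 (SE; 95% interval -0.49 to 0.20). With the block the interval lay below 0 (-0.28 to -0.04), but the edgeR adjusted p was 0.294 and the differences by number were -0.18, -0.30 and 0.02. Without PRP 3 the unpaired value was -0.33, and without control 3 it was -0.06. The noncoding gene 1700045H11Rik, which overlaps Errfi1, had 0 to 1 counts.

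Ddit4 (Entrez 74747, chromosome 10, 59949675 to 59951770, minus strand) encodes REDD1, an inhibitor of mTORC1 signalling that also responds to low oxygen, energy shortage and stress. Its levels were 72.2, 53.8 and 69.0 CPM in control and 89.0, 64.6 and 73.4 CPM in PRP. It was the only one of the 8 that was higher in PRP in all 3 numbers, by 0.30, 0.26 and 0.09 on the log2 scale, and 16.8% of all genes tested were higher in all 3. The groups overlapped, since PRP 2 lay below controls 1 and 3. The log2 fold change was 0.22 ± 0.14 (SE; 95% interval -0.11 to 0.55), or 1.17-fold. With the block it was 0.22 ± 0.06 (interval 0.09 to 0.35), with an edgeR adjusted p of 0.173, and in limma-voom with the block the adjusted p was 0.226. Without PRP 1 the unpaired value was 0.09, without control 2 it was 0.10, and without control 3 it was 0.265. Ddit4 and Errfi1 were the 2 of the 8 with an unadjusted p under 0.05 in the blocked fit, a level that 11.2% of all genes tested reached, and they lay on opposite sides of 0.

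**Figure D2:**
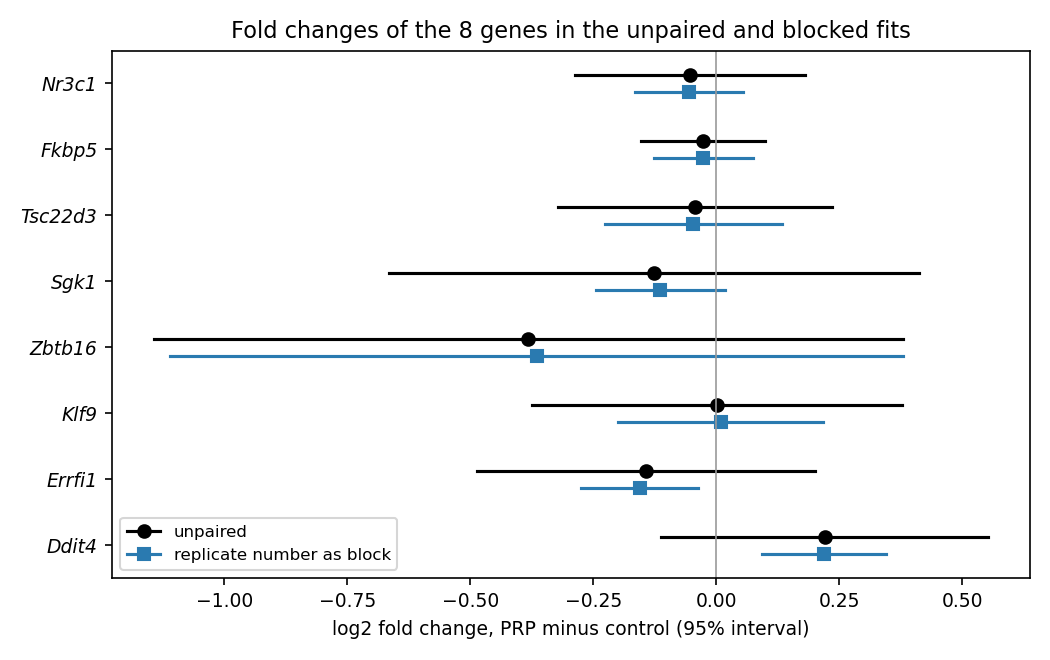
Log2 fold change, PRP minus control (horizontal axis), of each gene in the unpaired fit (black circles) and in the fit that blocks on the number (blue squares), with 95% intervals. All 8 unpaired intervals span 0, and the blocked interval lies above 0 for Ddit4 and below 0 for Errfi1, neither of which passed after adjustment.

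Expressed per kilobase of merged exon, so that genes can be compared, control levels ran from 93.1 ± 9.8 for Errfi1 and 37.0 ± 5.6 for Ddit4 to 22.1 ± 0.81 for Fkbp5, 12.6 ± 3.2 for Sgk1, 11.7 ± 1.2 for Nr3c1, 6.76 ± 0.68 for Tsc22d3, 5.33 ± 1.0 for Klf9 and 0.313 ± 0.076 for Zbtb16 (CPM per kilobase, SD, n = 3). The ranges of Sgk1 and Nr3c1 overlapped over the 6 libraries (8.98 to 15.1 and 10.2 to 13.1), as did those of Tsc22d3 and Klf9 (5.82 to 7.52 and 4.15 to 6.31), so those neighbours were not ordered. The other steps were larger than the spread. Merged exons join all GENCODE transcripts of a gene, so genes with many transcripts, such as Fkbp5 with 15, are placed too low if only a short form is used.

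Across the 6 libraries the 8 genes did not follow a common course. Nr3c1, Klf9 and Errfi1 were highest in libraries numbered 3, Tsc22d3 was highest in those numbered 2, and Sgk1 was lowest in those numbered 1. Pearson's r of log2 CPM was 0.86 between Nr3c1 and Klf9 but -0.60 between Nr3c1 and Tsc22d3, -0.87 between Tsc22d3 and Ddit4 and 0.00 between Fkbp5 and Tsc22d3. These are descriptions over 6 libraries that share their numbers in pairs, chosen from 28 pairs of genes. By the number, 6 of the 8 genes had between 70.2% and 95.3% of their variance held, and the exceptions were Fkbp5 and Zbtb16 (23.4%). Of all genes tested, 33.1% had a larger share than the 70.2% of Ddit4, and the median was 55.7%. The treatment held from 0.05% (Klf9) to 34.7% (Zbtb16), with a median of 11.3% over all genes tested.

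**Figure D3:**
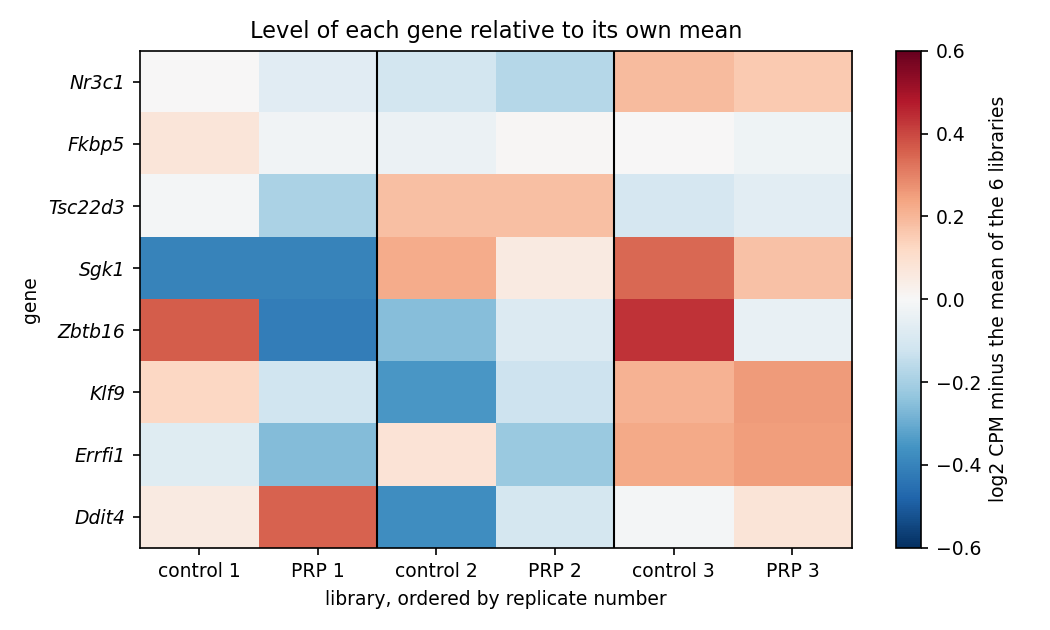
Log2 CPM of each gene minus its own mean over the 6 libraries (colour, red above and blue below), with libraries ordered by replicate number and black lines between numbers. Neighbouring columns of the same number share their colour in most rows, as in Sgk1, where both libraries numbered 1 are low, while the row of Fkbp5 is nearly blank.

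Genes whose course was most like that of Tsc22d3, among 11164 other genes with a mean log2 CPM above 3, were Cspp1, Plin2 and Ccny (r = 1.00, 0.99 and 0.99 over the 6 libraries). Cspp1 encodes a centrosome and spindle pole protein, Plin2 a lipid droplet coat protein and Ccny a cyclin, and their log2 fold changes were -0.02, -0.05 and -0.04. The closest to Fkbp5 were Wbp4, Hectd2 and the coactivator gene Ncoa3 (r = 0.96, 0.94 and 0.94), with log2 fold changes of -0.04, -0.14 and -0.02. These rank first out of many genes and carry no test.

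The machinery that holds and assists the receptor was followed in 16 genes, all of them tested, for HSP90 and its partner chaperones and for coactivators and corepressors. None passed in the unpaired or the blocked fit, 6 lay above 0 and 10 below, and the median log2 fold change was -0.02. Fkbp4, which encodes FKBP52, the counterpart of Fkbp5's product that favours receptor activity, had mean levels of 192.2 ± 10.3 CPM (control) and 203.3 ± 1.9 CPM (PRP; SD, n = 3) and a log2 fold change of 0.08 ± 0.06 (SE; named after its value was seen). The acetyltransferase gene Ep300, a coactivator of many factors, stood at 241.8, 230.2 and 241.3 CPM in control and 202.6, 205.1 and 217.3 CPM in PRP. All 3 PRP libraries lay below all controls, as in 4.87% of all genes tested. Its log2 fold change was -0.19 ± 0.06 (SE), with an edgeR adjusted p of 1 without and 0.144 with the block. The related gene Crebbp (-0.09 ± 0.06) and the coactivator gene Ncoa1 (-0.10 ± 0.07) were the other 2 of the 16 with groups that did not overlap, all 3 of them lower. For the corepressor gene Ncor1 the value was -0.11 ± 0.07 (SE), and -0.06 without control 3.

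Supply of active corticosteroid depends on enzymes within the tissue, followed with related steroid receptors in 17 genes, of which 16 were in the table and 13 were tested. None passed in either fit, 5 lay above 0 and 8 below, with a median of -0.03. Hsd11b2 encodes the enzyme that inactivates glucocorticoid, and Hsd11b1 the one that regenerates it. Per kilobase, Hsd11b2 stood at 7.22 ± 1.7 in control and Hsd11b1 at 0.249 ± 0.01 (CPM per kilobase, SD, n = 3), and the lowest library of the first (5.54) lay above the highest of the second (0.439). Hsd11b2 had 13.1, 10.2 and 16.6 CPM in control and 19.4, 14.9 and 15.3 CPM in PRP, with a log2 fold change of 0.32 ± 0.19 (SE), which ran from 0.159 without control 2 to 0.505 without control 3. The 37, 37 and 39 counts of Hsd11b1 in control and 68, 42 and 53 in PRP did not overlap, as in 4.34% of all genes tested in that direction, and its log2 fold change was 0.50 ± 0.34 (SE; 95% interval -0.27 to 1.27). H6pd, which supplies the cofactor of that second enzyme, had a value of -0.15 ± 0.11 (-0.03 without control 3), and the mineralocorticoid receptor gene Nr3c2, whose product also binds glucocorticoid, one of -0.13 ± 0.17.

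Star, which delivers cholesterol for steroid synthesis, had the smallest unadjusted p of these genes, with 30.1, 24.0 and 23.1 CPM in control and 17.3, 20.6 and 17.9 CPM in PRP. All PRP libraries lay below all controls, as in 4.87% of all genes tested. The log2 fold change of Star was -0.47 ± 0.13 (SE), with an edgeR adjusted p of 1 without and 0.144 with the block. Of the 4 adrenal cortex markers in the table, the 2 enzyme genes of glucocorticoid synthesis were at or near 0, with 0 to 4 counts per library for the 11-beta-hydroxylase gene Cyp11b1 and 0 to 8 for the 21-hydroxylase gene Cyp21a1. The other two, Akr1b7 and the corticotropin receptor gene Mc2r, were present in every library, with 124 to 200 and 15 to 41 counts. Akr1b7 did not overlap between groups, at 4.57 to 5.58 CPM in control and 3.42 to 4.18 CPM in PRP (PRP lower, as in 4.87% of all genes tested), and its log2 fold change was -0.45 ± 0.20 (SE; edgeR adjusted p = 1; named after its values were seen). The 4 summed to 5.74 to 6.25 CPM in control and 4.12 to 5.32 CPM in PRP. Fat cell markers summed to 2.70 to 4.80 CPM in control and 2.95 to 3.84 CPM in PRP, with 1 to 8 counts of Adipoq, and 5 platelet markers to 5.05 to 6.64 CPM and 5.74 to 8.56 CPM.

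Further targets of the receptor were taken from general knowledge as a list of 40 genes, of which 36 were tested. In the unpaired fit 0 passed, 20 lay above 0 and 16 below, and the median log2 fold change was 0.03. Per1, a clock gene with receptor elements of its own, stood at 56.7, 44.5 and 63.9 CPM in control and 72.1, 50.9 and 57.3 CPM in PRP, with a log2 fold change of 0.13 ± 0.16 (SE). Dusp1, a MAP kinase phosphatase, and Cebpd, a transcription factor of the acute phase, had values of 0.13 ± 0.18 and 0.17 ± 0.22. Single libraries of both groups moved these values. Without control 3 they were 0.248 for Per1, 0.359 for Dusp1 and 0.421 for Cebpd, and without control 2 they were -0.003, 0.009 and -0.024. Without PRP 1 they were -0.024, 0.152 and 0.06 in the same order, and without PRP 3 they were 0.16, 0.028 and 0.194. In all 3 genes PRP was higher in numbers 1 and 2 and lower in number 3.

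Pdk4, a kinase that restrains pyruvate oxidation and a known target of this receptor, had 38.8, 55.1 and 52.7 CPM in control and 27.8, 41.8 and 41.1 CPM in PRP. It was lower in each number, by 0.48, 0.40 and 0.36, and its log2 fold change was -0.40 ± 0.19 (SE) without the block (edgeR adjusted p = 1). With the block Pdk4 fell by 0.41 (adjusted p = 0.0331). It was 1 of 2 genes of the list to pass there, and the other was Zfp36, a factor that destabilises AU-rich messages, which rose by 0.32 with the same adjusted p (named after its value was seen). Over all genes tested, 0.0401% fell and 0.0801% rose past the threshold in that fit, and each direction held 1 of the 36. The list was drawn up with earlier results of these data known, so these shares cannot measure an enrichment. Leaving out number 1, 2 or 3 ended both calls, with edgeR adjusted p-values of 0.189, 0.225 and 0.075 for Pdk4 and 0.168, 0.146 and 0.134 for Zfp36. In limma-voom with the block no gene of the table passed. Mt2, a metallothionein, and the secreted lipocalin gene Lcn2 had log2 fold changes of -0.30 ± 0.15 and -1.24 ± 0.61 (SE), and Foxo1, a transcription factor, one of -0.11 ± 0.06. The value of Lcn2 goes with control 3, which had 142 counts, where the other 5 libraries had 21 to 40; without control 3 the value was -0.18.

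**Figure D4:**
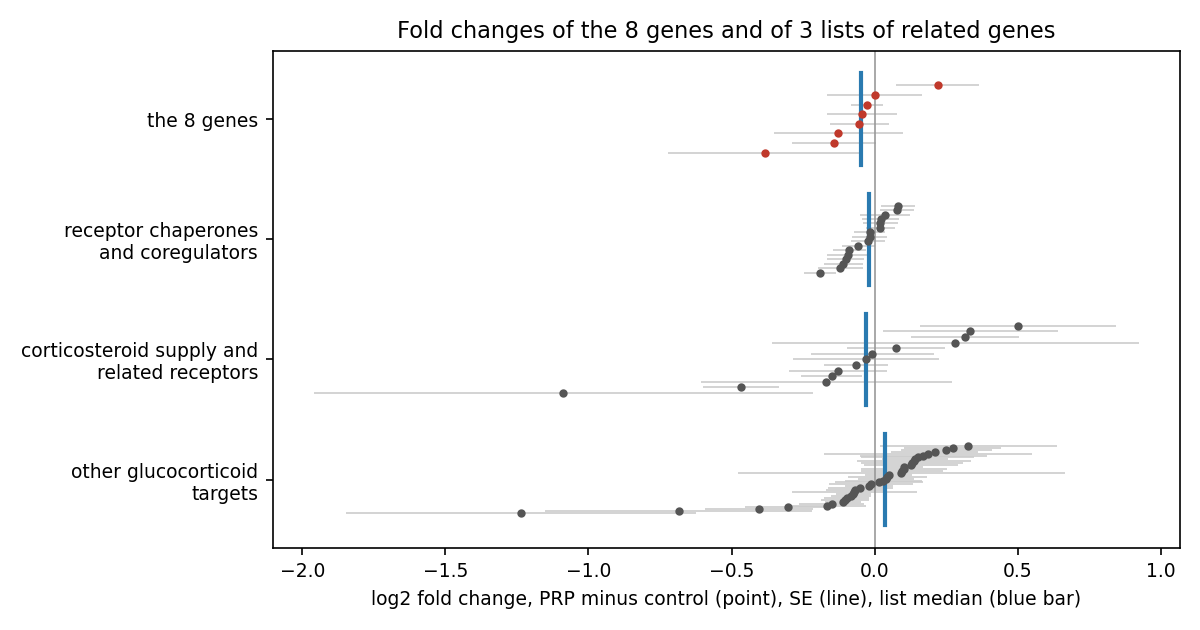
Log2 fold change, PRP minus control, in the unpaired fit (horizontal axis) for the 8 genes (red) and for the tested members of the 3 lists of related genes (grey), each with its SE, and with the median of each list as a blue bar. The medians lie at -0.05, -0.02, -0.03 and 0.03, and no point passed the test.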

How the data were processed

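Messenger RNA of 6 cultured mouse ovary samples was analysed, 3 control and 3 PRP, grouped and numbered by their titles. The authors deposited raw counts per gene symbol in 1 table, on GRCm38 (mm10) per the submitters' processing notes. The aligner, counting tool and strand setting (not given in the sources used here) are unknown, so reads of overlapping genes may have gone to either gene. The column of PRP 3 has the letters of its title in another order and was assigned to PRP 3, since the other titles have their own columns. Two-sided tests used edgeR 4.0.16 in R 4.3.3 (filterByExpr, TMM, robust quasi-likelihood F test, 17475 genes, Benjamini-Hochberg over all of them, threshold 0.05). SEs came from the fold change and its F statistic. CPM values use TMM library sizes, and log2 CPM a prior count of 2. Gene positions are those of RefSeq GRCm38.p6 by Entrez identifier, and exon lengths those of GENCODE (release M21). Intervals cover only these libraries. The procedure was also run on simulated independent counts with no effect of the replicate number, which cannot check the pairing. Its outcome is not given here.

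No label pairs the libraries. Per-gene deviations from group means had correlations of 0.24, 0.40 and 0.33 between the same numbers and of -0.02 or lower between others. Deviations within a group sum to 0, so the low values between others follow in part from those of the same numbers. The numbers were taken as pairs from the data, and a fit with the number as a block was added. Pairs of libraries differed beyond counting noise (Poisson chi-square per degree of freedom 8.91 to 32.0). Named genes were the 8 genes, the 4 with the smallest unpaired p of each related list, 7 fixed genes (Hsd11b1, Hsd11b2, Nr3c2, Per1, Dusp1, Pdk4 and Cebpd) and the 3 most similar to Tsc22d3 and to Fkbp5. Zfp36, Fkbp4 and Akr1b7 were added after their values were seen, and they count among the 33 named genes. The members and lists were chosen with earlier results of these data known. Alternatives were other scaling factors and filters, DESeq2 1.42.0, limma-voom (limma 3.58.1), no robust estimation, the block, and leaving out libraries.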

Additional observations from a re-analysis of the deposited data

How the results depend on the processing

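Under 19 alternatives, 10 with all libraries and 9 that leave some out, 0 of the 8 genes passed. Without the block, 0 genes of the whole table and 0 genes of the related lists passed under any of the scaling factors, filters, tools or left-out libraries tried. With the replicate number as a block (a pairing read from the data), 21 genes and 2 list genes passed, and 0 in limma-voom with the block. Without each replicate number in turn the blocked fit called 1 to 19 genes (3 without number 1), so that over all left-out libraries the counts ran from 0 to 19 genes and from 0 to 1 list genes. The block changed no call among the 8 genes. Of 626 fold changes of the 33 named genes under alternatives, 598 kept their sign, and the 28 that did not all came from leaving out libraries. Leaving out 1 library at a time without the block, log2 fold changes ranged from -0.152 to 0.032 for Nr3c1, -0.048 to 0.001 for Fkbp5, -0.152 to 0.041 for Tsc22d3, -0.324 to 0.026 for Sgk1, -0.149 to 0.11 for Klf9, -0.024 to 0.248 for Per1, -0.024 to 0.421 for Cebpd, -0.098 to 0.037 for Cspp1, -0.15 to 0.033 for Plin2, -0.096 to 0.009 for Ccny, -0.21 to 0.026 for Hectd2 and -0.038 to 0.001 for Ncoa3. With the block and 1 number left out, they ranged from -0.06 to 0.004 for Fkbp5, -0.087 to 0.017 for Tsc22d3, -0.097 to 0.132 for Klf9 (-0.011 without number 3), -0.049 to 0.013 for Cspp1, -0.109 to 0.02 for Plin2, -0.064 to 0.004 for Ccny and -0.257 to 0.013 for Hectd2. Ddit4, Errfi1 and Zbtb16 kept their sign in all 19, at 0.09 to 0.32, -0.33 to -0.05 and -0.63 to -0.16. Cebpd passed in 1 alternative, the block without number 3 (0.45, edgeR adjusted p = 0.0397). A group left with 2 libraries, or 2 pairs, is tested with the spread shared across all genes. Zbtb16 had the fewest counts of the 8 genes, 39 to 68 per library.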
